A study of Mus musculus with 12 samples.

Results

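The comparison described here is the difference of the response to lipopolysaccharide (LPS) between Parp14 -/- and wild-type RAW 264.7 cells, a macrophage-like line made from a tumour of BALB/c mice. Its members are 8 of the 12 RNA-seq libraries of the study, 2 from each of 4 groups: KO cells given LPS for 2 h, WT cells given LPS for 2 h, untreated KO cells and untreated WT cells. The other 4 libraries are WT cells given a Jak inhibitor with or without LPS, whose name and dose the labels do not give. They entered the estimate of the spread, and the levels with LPS and inhibitor are set beside some results. The number of KO clones is not given, so neither a difference before LPS nor a difference of the LPS response can be told apart from one between the lines. Nothing in the labels says that replicates came from separate cultures, and a p-value here may rest on technical spread between libraries alone.

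LPS is bound by the receptor Tlr4, and its adaptors lead to activation of NF-kB and AP-1, which turn on inflammatory cytokine genes, and of Irf3, which turns on the interferon beta gene Ifnb1. Secreted interferon beta acts back on the cells through its receptor and the Jak-STAT pathway, and the factors activated there bind interferon-stimulated response elements (ISRE) or gamma-activated sequences (GAS) in a second set of genes. Parp14 is a mono-ADP-ribosyltransferase with macrodomains that is itself an interferon-stimulated gene.

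The libraries held 35940669 to 45662896 reads in genes. Levels are given as CPM, scaled here to the reads in genes of each library, and differences on the scale of log2(CPM + 1), which understates the change of genes with few reads. A response is the level with LPS minus the level without it, and the difference of the response is the response of KO cells minus that of WT cells. A gene was called at an adjusted p under 0.05 (limma, Benjamini-Hochberg over all 10899 genes tested). Replicates of a group had a Pearson r across genes of 0.9960 to 0.9970 in the 4 groups. The targeted gene was at 34.9 and 40.5 CPM in KO cells with LPS, against 315 and 419 CPM in WT cells with LPS. In untreated cells Parp14 was at 10 and 12 CPM in KO and at 76.4 and 99.7 CPM in WT cells. Its KO libraries lay below all WT libraries of the same treatment, and it still rose with LPS in KO cells, by 1.69 against 2.04 in WT cells. Macrophage genes were present in all groups, but not all at the same level. Csf1r, the receptor of macrophage colony-stimulating factor, averaged 1196 CPM in KO and 1256 CPM in WT cells with LPS. Lyz2, lysozyme, averaged 6654 CPM in KO and 8328 CPM in WT cells with LPS. Adgre1, a macrophage surface marker, was at 76.4 and 64.7 CPM in KO cells with LPS, against 188 and 163 CPM in WT cells with LPS. Its untreated level in KO cells was 51.4% of WT, and its responses differed by -0.35 (adjusted p = 0.00464). Of 31 macrophage genes tested 10 were called higher and 13 lower in KO cells with LPS, against 14.9% and 16.7% of all genes tested. The summed levels of 12 lymphocyte, 9 neutrophil and mast cell, and 12 stromal, epithelial and endothelial markers were each under 1 CPM in all 8 libraries.

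The response to LPS differed between KO and WT cells for 413 genes, 3.79% of those tested. The response value was smaller in KO cells for 231 genes (2.12%) and larger for 182 (1.67%). The difference was at least 1 on the log2 scale for 38 of the genes with a smaller and 18 of those with a larger value, and the median over all genes tested was 0.00. LPS raised 1996 genes (18.3%) and lowered 6781 (62.2%) in KO cells, and raised 1959 (18%) and lowered 6847 (62.8%) in WT cells. Of the 231 genes with a smaller value, 156 rose with LPS in WT cells, and of these 109 also rose in KO cells, 31 were not called there and 16 fell. A further 54 fell in both genotypes, by more in KO cells, and 21 fell in KO cells and were not called in WT cells. Of the 182 genes with a larger value, 88 rose in both genotypes, 23 rose in KO cells and were not called in WT cells, 53 fell in both by less in KO cells, and 12 fell in WT cells and were not called in KO cells. The remaining 6 fell in WT and rose in KO cells. Without the replicate number as a block in the fit, 31 genes had a smaller and 14 a larger response value in KO cells. In simulated counts limma called 0.551% of unchanged genes, so some of the 413 may be false calls. All genes had a median response of -0.29 in KO and -0.30 in WT cells with each library scaled to its reads in genes. Once the libraries were rescaled by their median ratios it was -0.03 and -0.04, so the direction of a small response depends on the scaling. After that rescaling LPS raised 3848 and lowered 4404 genes in KO cells, and raised 3817 and lowered 4380 in WT cells. With median-ratio scaling the response value in KO cells was smaller for 239 and larger for 163 genes, but with the CPM as deposited it was smaller for 211 and larger for 239. Without KO with LPS replicate 2 it was smaller for 162 and larger for 171, so which direction held more genes turned round under both.

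The called genes were then split by whether KO and WT cells already differed without LPS. In untreated cells 1189 genes were higher (10.9%) and 1496 lower (13.7%) in KO than in WT cells, and with LPS 1623 were higher (14.9%) and 1815 lower (16.7%). Of the 413 genes, 190 were called with LPS and not before it: 105 were lower in KO cells (0.963% of genes tested) and 85 were higher (0.78%). A gene not called before LPS is not shown to be equal there, since the test can miss a difference. The estimated difference before LPS was under 25% of the difference of the responses for 77 of the 105 and 59 of the 85. That count does not show equality either, since on the log2(CPM + 1) scale genes with few untreated reads differ little whatever their ratio. Prdm1 was among the 77, with KO cells at 28% of the WT level untreated and 26.3% with LPS. Another 222 genes differed before LPS as well, 79 higher and 143 lower in KO cells. The remaining gene, named after its value was seen, was Sdc4, a cell surface heparan sulfate proteoglycan, at -0.42, which was called on neither side. Of the 222, the gap between the genotypes was wider with LPS for 27 of the 79 and 73 of the 143, and it was narrower or turned round for 52 and 70. After LPS 54 of the 222 genes were no longer called different between KO and WT cells, and 27 were called in the opposite direction.

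**Figure D1:**
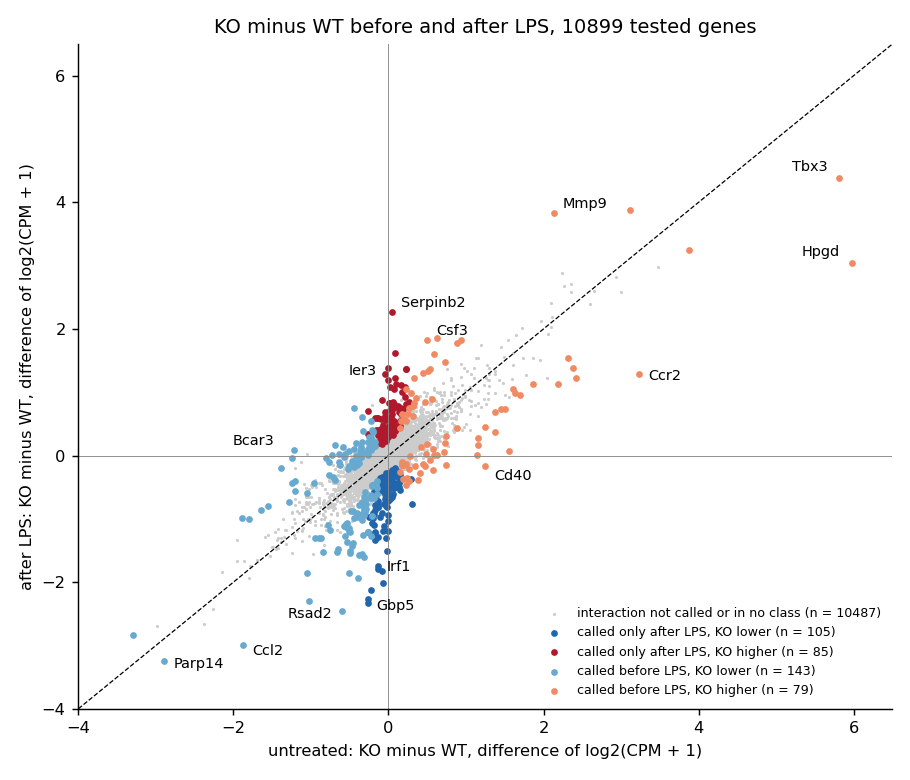
Each point is 1 of 10899 genes, placed by its KO minus WT difference in untreated cells (horizontal) and after 2 h of LPS (vertical), both as differences of log2(CPM + 1) of group means of 2 libraries. On the dashed line the response is equal in both genotypes, dark points stand near 0 horizontally and were called with LPS only, and pale coloured points were called before LPS as well.

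The genes lower in KO cells with LPS only included regulators, antiviral proteins and secreted factors, and some but not all of these belong to the interferon response. Irf1 (chromosome 11, 53770014 to 53778374, plus strand; positions are on GRCm38), a transcription factor of interferon-stimulated genes, was at 25.7 and 26.3 CPM in KO cells with LPS, against 95.4 and 82.9 CPM in WT cells with LPS. Without LPS it was at 23.4 and 24.2 CPM in KO and at 28.4 and 24.4 CPM in WT cells. The groups lay close together without LPS, and only WT cells with LPS stood apart. Irf1 rose with LPS in WT cells by 1.72, and its response in KO cells, 0.12, was not called. The difference of the responses was -1.59 (SE 0.12, adjusted p = 8.39e-06), while the genotypes differed by -0.14 without LPS (95% interval -0.33 to 0.04).

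Ifit2 (chromosome 19, 34550694 to 34576419, plus strand), an RNA-binding antiviral protein, was at 4.65 and 7.51 CPM in KO cells with LPS, against 21.6 and 25.7 CPM in WT cells with LPS. In untreated cells it was at 9.8 and 9.54 CPM in KO and at 10.4 CPM in both WT libraries. The genotypes started at nearly the same level and moved apart, with KO cells below their untreated level and WT cells above it. Ifit2 fell by 0.62 in KO cells and rose by 1.11 in WT cells, a difference of -1.73 (SE 0.19, adjusted p = 0.000118), with an untreated difference of -0.09 (95% interval -0.38 to 0.19).

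Csf1 (chromosome 3, 107741048 to 107760469, minus strand), the growth factor that keeps macrophages alive, was at 7.01 and 5.95 CPM in KO cells with LPS, against 34.1 and 35.7 CPM in WT cells with LPS. It was under 1 CPM without LPS in all 4 libraries. It rose in both genotypes, to 18.6% of the WT level in KO cells with LPS, and the difference of the responses was -2.00 (SE 0.15, adjusted p = 8.39e-06). The repressor Prdm1 (Blimp-1; chromosome 10, 44437177 to 44528501, minus strand) was at 7.87 and 7.65 CPM in KO cells with LPS, against 30.9 and 28.1 CPM in WT cells with LPS. Prdm1 had 3 reads in the untreated KO libraries together and 11 in the WT libraries, so its ratio to the untreated level is poorly measured: the difference of the responses was -1.67 (adjusted p = 1.63e-05), and -0.17 on the ratio scale of edgeR, where it was not called (adjusted p = 0.986).

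Chemokines and the interferon gene itself showed the same limit. Ifnb1 (chromosome 4, 88522025 to 88522774, minus strand) was at 10.7 and 14.4 CPM in KO cells with LPS, against 31.7 and 27.7 CPM in WT cells with LPS. The KO libraries lay below both WT libraries, at 42.3% of the WT level. With 2 reads in each untreated genotype, the difference of the responses was -1.19 (SE 0.17, adjusted p = 0.00102), and -1.28 in edgeR without a call (adjusted p = 0.85). Cxcl11, a chemokine for activated T cells, was at 1.42 and 2.39 CPM in KO cells with LPS, against 11.4 and 11.5 CPM in WT cells with LPS, a difference of the responses of -1.90 (SE 0.18, adjusted p = 2.54e-05). For Cxcl11 edgeR gave -1.83 without a call (adjusted p = 0.0553) and DESeq2 gave -1.85 with one (adjusted p = 0.00518). The monocyte chemokine Ccl7 was at 0.306 and 0.468 CPM in KO cells with LPS, against 4.64 and 4.56 CPM in WT cells with LPS. Its untreated libraries held 0 reads in KO and 4 in WT cells. Its responses differed by -1.95 on the log2(CPM + 1) scale and 0.41 in edgeR, not called (adjusted p = 0.818), so for Ccl7 the lower level with LPS is measured and the difference of a ratio is not. Cx3cl1, a membrane-bound chemokine, was likewise at 2.03 and 1.08 CPM in KO cells with LPS, against 6.68 and 5.66 CPM in WT cells with LPS, with 0 untreated reads in KO and 1 in WT cells. Its difference was -1.49 and turned to 0.19 in edgeR, where it was not called (adjusted p = 0.854).

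**Figure D2:**
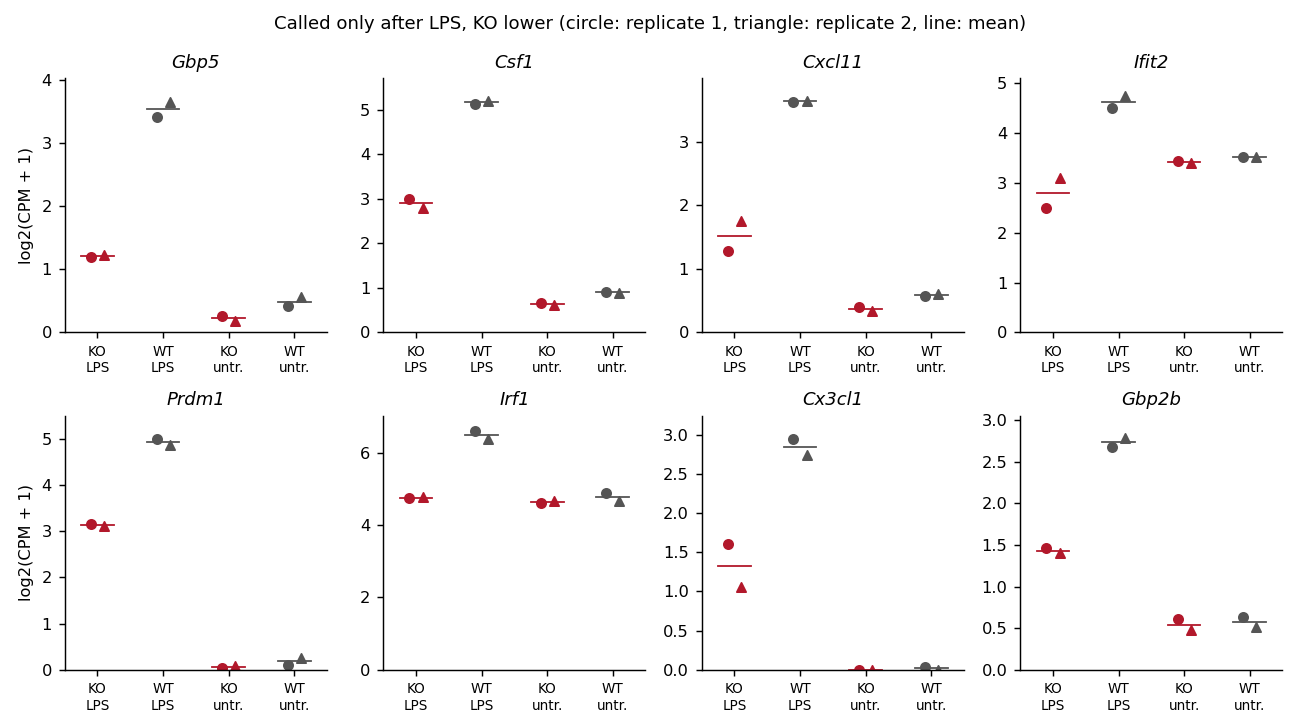
Level of the 8 genes with the largest difference among those called lower in KO cells with LPS only, as log2(CPM + 1) in each library (circle and triangle, replicates 1 and 2; line, mean), with a scale of its own for each gene. KO cells with LPS lie below WT cells with LPS in each panel, where for Irf1 they lie within the range of untreated WT cells and for Ifit2 below all untreated libraries.

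Interferon-stimulated genes were 49 of the 231 genes with a smaller response. Of 82 tested members of this list of 86, these 49 had a smaller and 0 a larger response value in KO cells, with a list median of -0.51, against 2.12% and 1.67% of all genes tested. In 16 of the 49 KO cells were lower with LPS only, 31 were already lower before LPS, and 2, Samd9l and Pml, were higher before LPS and lower with it. The list's summed level was 6304 to 6833 CPM in KO cells with LPS, against 9000 to 9719 CPM in WT cells with LPS, and without LPS it was 3221 to 3518 CPM in KO and 3528 to 3875 CPM in WT cells. The ranges did not overlap with or without LPS, and the gap was wider with it. LPS raised 47 members in KO and 66 in WT cells, or 58 and 74 with median-ratio scaling. Of all 10899 genes tested it raised 1996 in KO and 1959 in WT cells, or 3848 and 3817 with median-ratio scaling. Fewer cells responding and less RNA per cell cannot be told apart in these bulk libraries. Of the 49 calls 42 were also made by edgeR and 38 by DESeq2, and 8 without the replicate block.

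Rsad2 (viperin; chromosome 12, 26442746 to 26456452, minus strand), an antiviral enzyme that makes a chain-terminating nucleotide, was at 7.01 and 10.6 CPM in KO cells with LPS, against 48.6 and 54.8 CPM in WT cells with LPS. Without LPS it was at 1.45 and 2.22 CPM in KO and at 2.71 and 3.9 CPM in WT cells. KO libraries were below WT libraries in both conditions, at 17% of the WT level with LPS and 55.6% without. Its difference of the responses was -1.85 (SE 0.14, adjusted p = 8.39e-06) on top of an untreated difference of -0.60. Its neighbour Cmpk2, a mitochondrial nucleotide kinase, was at 8.43 and 10.2 CPM in KO cells with LPS, against 36.5 and 39.6 CPM in WT cells with LPS, and the difference of the responses was -1.53 (SE 0.10, adjusted p = 2.98e-06). Without LPS Cmpk2 was at 6.87 and 8.39 CPM in KO and at 9.48 and 11.1 CPM in WT cells, so KO cells with LPS stayed below the untreated WT level except for 1 library that lay between the WT values. Ifit1, which binds RNA lacking a host cap, was at 37.1 and 43.7 CPM in KO cells with LPS, against 143 and 155 CPM in WT cells with LPS, and the difference was -1.35 (SE 0.11, adjusted p = 1.16e-05). The groups with LPS did not overlap for either gene.

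Components of the interferon pathway itself were among the called genes. Of 22 genes of type I interferon induction and the receptor, 6 had a smaller and 0 a larger response value in KO cells (list median -0.11), against 2.12% and 1.67% of all genes tested: Irf1, Ifnb1, Stat2, Usp18, Uba7 and Irf7. Without the replicate block 2 of the 6 calls were made. Stat2, which carries the interferon signal to ISREs, was at 14.9 and 18.8 CPM in KO cells with LPS, against 36.2 and 44.1 CPM in WT cells with LPS. It fell by 0.62 in KO cells and rose by 0.33 in WT cells, and its untreated difference was -0.26. Usp18, which removes ISG15 and dampens interferon receptor signalling, differed in response by -0.87 (SE 0.10, adjusted p = 0.000188). Usp18 was already lower in KO cells without LPS, by -0.66. Irf7, the amplifier of interferon production, was at 29.4 and 40.8 CPM in KO cells with LPS, against 72 and 87.5 CPM in WT cells with LPS, but also at 15.3 and 20.7 CPM in KO and 26 and 36.8 CPM in WT cells without LPS. The difference of its responses, -0.41 (adjusted p = 0.0277), was smaller than its untreated difference of -0.76, and its call was lost without any 1 of 7 libraries (-0.44 to -0.30).

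Guanylate-binding proteins and immunity-related GTPases, which attack the membranes around intracellular microbes, had the lowest list median, -1.16. All 8 of the 16 listed that passed the filter of 1 CPM in at least 2 libraries had a smaller response value in KO cells, against 2.12% of all genes tested. The fits with edgeR, with DESeq2 and without the replicate block each called 5 of the 8, and with no filter on low values 9 of all 16 were called, with a median of -0.67. Gbp5 (chromosome 3, 142493978 to 142522344, plus strand) was at 1.28 and 1.33 CPM in KO cells with LPS, against 9.59 and 11.6 CPM in WT cells with LPS, and the difference of the responses was -2.06 (SE 0.16, adjusted p = 8.39e-06). Gbp5 was under 0.5 CPM untreated in all 4 libraries (13 KO and 32 WT reads), and edgeR gave -1.78 without a call (adjusted p = 0.114). Igtp and Irgm2, with more untreated reads, averaged 11 and 20.5 CPM in KO cells with LPS, against 26.4 and 48.3 CPM in WT cells with LPS, and differed in response by -1.12 and -1.03. Reads of near-identical Gbp, Irg, Ifit and Ifi20x genes may have been split or dropped in the authors' counting, so values of single members of these families are uncertain. The summed level of the list was 95.8 to 120 CPM in KO cells with LPS, against 276 to 302 CPM in WT cells with LPS.

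Promoters of 4 genes with a smaller response and 1 with a larger one are shown as examples of which motif letters such promoters hold. Each is the 300 bases from 250 before to 50 after the start site, on the gene's strand, from RefSeq (GRCm38.p6). Capitals mark matches on either strand to the ISRE letters GAAA-NN-GAAA, the GAS letters TTC-NNN-GAA or the NF-kB letters GGGA-NNNN-CC, where N is any base and the hyphens only set off the parts, and no marked matches overlap.
Rsad2, chr12:26456403-26456702, minus strand: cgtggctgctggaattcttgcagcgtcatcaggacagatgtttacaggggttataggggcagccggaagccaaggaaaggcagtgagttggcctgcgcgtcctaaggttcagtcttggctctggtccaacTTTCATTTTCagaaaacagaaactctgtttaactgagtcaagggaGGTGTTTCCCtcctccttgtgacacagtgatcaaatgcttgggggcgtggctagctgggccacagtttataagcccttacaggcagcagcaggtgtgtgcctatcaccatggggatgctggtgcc
Gbp5, chr3:142496684-142496983, plus strand: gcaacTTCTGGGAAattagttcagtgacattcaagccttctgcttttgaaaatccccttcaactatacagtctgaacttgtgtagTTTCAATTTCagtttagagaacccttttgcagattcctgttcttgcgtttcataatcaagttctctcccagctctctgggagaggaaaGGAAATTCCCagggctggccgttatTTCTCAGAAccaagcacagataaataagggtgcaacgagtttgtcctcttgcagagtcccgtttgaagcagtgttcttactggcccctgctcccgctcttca
Irf1, chr11:53769764-53770063, plus strand: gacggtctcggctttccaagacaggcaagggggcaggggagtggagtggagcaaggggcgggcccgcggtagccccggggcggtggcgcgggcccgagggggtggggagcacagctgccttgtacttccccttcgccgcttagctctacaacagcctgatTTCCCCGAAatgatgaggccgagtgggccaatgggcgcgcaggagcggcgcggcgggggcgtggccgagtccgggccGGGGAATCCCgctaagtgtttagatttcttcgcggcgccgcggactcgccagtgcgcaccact
Ifnb1, chr4:88522745-88523044, minus strand: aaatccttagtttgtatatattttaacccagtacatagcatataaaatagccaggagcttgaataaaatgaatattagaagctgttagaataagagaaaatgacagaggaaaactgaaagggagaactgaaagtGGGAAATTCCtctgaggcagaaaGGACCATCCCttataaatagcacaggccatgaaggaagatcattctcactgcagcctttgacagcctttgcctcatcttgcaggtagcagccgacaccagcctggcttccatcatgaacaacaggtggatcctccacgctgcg
Serpinb2, chr1:107511173-107511472, plus strand: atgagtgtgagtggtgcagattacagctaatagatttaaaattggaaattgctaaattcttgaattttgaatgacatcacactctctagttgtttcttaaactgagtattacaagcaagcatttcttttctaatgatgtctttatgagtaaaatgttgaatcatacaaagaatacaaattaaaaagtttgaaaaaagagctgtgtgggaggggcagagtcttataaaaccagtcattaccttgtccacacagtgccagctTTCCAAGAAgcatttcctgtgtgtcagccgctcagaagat
Rsad2 held 1 ISRE and 1 NF-kB match, and Gbp5 held 1 ISRE, 2 GAS and 1 NF-kB match. Irf1 held 1 GAS and 1 NF-kB match and no ISRE match, Ifnb1 held 2 NF-kB matches, and Serpinb2 held 1 GAS match that lies after its start site. Irf1 and Serpinb2 have 2 promoters each in the table and the first listed is shown. The second of Serpinb2 (chr1:107511260-107511559) holds the same GAS match before its start site, and the second of Irf1 held no match. Cmpk2, Ifit2 and Prdm1, which also had a smaller response, were searched and are not shown: none of them held an ISRE match, Cmpk2 and Prdm1 held no GAS or NF-kB match either, and 1 of the 2 promoters of Ifit2 held 1 GAS match overlapping 1 NF-kB match.

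Over whole classes the ISRE letters were in 13 of 107 promoters (12.1%) of the genes lower with LPS only and in 20 of 71 (28.2%) of those already lower before LPS with a smaller response. They were in 3.81% of promoters of the genes higher with LPS only, against 3.19% of the 10687 promoters of genes tested and 3.44% of all 32851 in the table. The GAS letters were in 12.1%, 11.3% and 7.62% of the same 3 classes, against 6.95% for genes tested and 8.3% of all. The NF-kB letters were in 21.5%, 23.9% and 30.5%, against 26.3% for genes tested and 20.7% of all. The AP-1 letters TGA-N-TCA, not marked above, were in 7.48%, 22.5% and 10.5%, against 4.94% for genes tested and 7.81% of all. Of the 105, 73 and 85 genes of these classes, 83, 50 and 73 had a promoter in the table, some of them more than 1. Among genes higher before LPS with a larger response, the ISRE letters were in 2 of 22 promoters (9.09%). For genes whose gap narrowed or turned round they were in 6 of 139 (4.32%). A match is only a match of letters and does not show binding.

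Of 40 NF-kB subunits, inhibitors and early targets, 2 had a larger and 4 a smaller response value in KO cells, with a median of -0.10, against 1.67% and 2.12% of all genes tested. Tnf, an early NF-kB target, was at 4416 and 4292 CPM in KO cells with LPS, against 4609 and 4424 CPM in WT cells with LPS, a difference of the responses of -0.09 (95% interval -0.31 to 0.13). Il1b and Il6 were not called either, at -0.31 (adjusted p = 0.501) and 0.44 (adjusted p = 0.388), and the untreated libraries of Il6 were under 0.11 CPM. Of 34 genes of the Tlr4 complex, adaptors and kinases, 1 had a larger and 1 a smaller value: Tlr4 itself, whose mRNA fell in both genotypes, by less in KO cells (0.53, SE 0.08, adjusted p = 0.00137), and the adaptor Myd88 at -0.24 (adjusted p = 0.0454), whose call was lost without any 1 of the 8 libraries (-0.29 to -0.20).

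Of 33 cytokines and chemokines tested, 11 had a smaller and 3 a larger response value in KO cells, with a list median of -0.16, against 2.12% and 1.67% of all genes tested. Fewer were called in edgeR (2 smaller, 1 larger), in DESeq2 (3 and 1) and without the replicate block (3 and 2). The smaller ones were the chemokines Ccl2, Ccl5, Ccl7, Ccl17, Cxcl10, Cxcl11 and Cx3cl1, with Csf1, Il15, Il27 and the TNF family member Tnfsf15. Ccl2, the main monocyte attractant, was at 12.4 and 19.3 CPM in KO cells with LPS, against 127 and 136 CPM in WT cells with LPS. Without LPS it was at 0.476 and 1.23 CPM in KO and at 4.74 and 6.75 CPM in WT cells, so KO cells were at 12.1% of the WT level with LPS and at 14.8% without it. The difference of the responses of Ccl2, -1.12 (adjusted p = 0.00117), was -0.32 in edgeR and not called (adjusted p = 0.77), and most of its difference with LPS was there before. Cxcl10 averaged 49.4% of the WT level in KO cells with LPS and 77.3% without it, a difference of the responses of -0.68 (SE 0.16, adjusted p = 0.0308) whose call was lost without 1 of 4 single libraries (-0.55 to -0.53). For Cxcl10 edgeR gave -0.66 (adjusted p = 0.0634) and DESeq2 -0.67 (adjusted p = 0.321), both without a call.

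The genes described next had a larger response value in KO cells. Ier3 (chromosome 17, 35821684 to 35822923, plus strand), an early gene that protects from cell death, was at 407 and 350 CPM in KO cells with LPS, against 166 and 163 CPM in WT cells with LPS. In untreated cells it was at 17.9 and 19.7 CPM in KO and at 17.8 and 19.8 CPM in WT cells. The genotypes overlapped without LPS and stood apart with it: the difference of the responses was 1.20 (SE 0.10, adjusted p = 1.3e-05) and the untreated difference 0.00 (95% interval -0.16 to 0.15). Osm (chromosome 11, 4236420 to 4241026, plus strand), the IL-6 family cytokine oncostatin M, was at 30.6 and 25.2 CPM in KO cells with LPS, against 11.5 and 10 CPM in WT cells with LPS. It rose in both genotypes, by 2.94 in KO and 1.60 in WT cells, a difference of 1.35 (SE 0.14, adjusted p = 7.23e-05).

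Serpinb2 (chromosome 1, 107511423 to 107535478, plus strand), an inhibitor of plasminogen activators, was at 29.2 and 28.1 CPM in KO cells with LPS, against 5.23 and 5.14 CPM in WT cells with LPS. The level was 5.52 times as high in KO cells with LPS, and the untreated libraries held 3 reads in KO and 0 in WT cells. On the log2(CPM + 1) scale the difference of the responses was the largest of the class, 2.21 (SE 0.13, adjusted p = 1.62e-06), but it was -1.14 in edgeR and -0.60 in DESeq2, called in neither. Lcn2, the siderophore-binding lipocalin, had the same limit: 8.93 and 7.16 CPM in KO cells with LPS, against 2.85 and 2.83 CPM in WT cells with LPS, with 8 KO and 3 WT reads untreated.

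Arg2, the mitochondrial arginase, was at 6.04 and 5.41 CPM in KO cells with LPS, against 1.88 and 1.32 CPM in WT cells with LPS, and its untreated libraries were level (0.602 and 0.314 CPM in KO, 0.583 and 0.325 CPM in WT cells). Its response differed by 1.38 (SE 0.15, adjusted p = 0.000118). Hilpda, which coats lipid droplets and slows their breakdown, was at 34.5 and 34.9 CPM in KO cells with LPS, against 15 and 16.1 CPM in WT cells with LPS, and the difference was 0.95 (SE 0.14, adjusted p = 0.00129). Rara, the retinoic acid receptor, differed in another way: it fell in WT cells by 1.07 and was not called in KO cells, at 21.1 and 14.9 CPM in KO cells with LPS, against 5.93 and 6.61 CPM in WT cells with LPS (difference 1.14, SE 0.17, adjusted p = 0.00135). The nuclear RNA Neat1 fell in both, by 0.75 in KO and 1.72 in WT cells. Immediate early factors had 3 larger and 0 smaller values among 27 (median 0.10), against 1.67% and 2.12% of all genes tested: Fosl2, Dusp5 and Ier5. Without the replicate block, and with no filter on low values, 0 of the 27 were called. The call of Fosl2 was lost without 1 of 5 single libraries (0.56 to 0.80) and that of Ier5 without 1 of 4 (0.39 to 0.47).

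**Figure D3:**
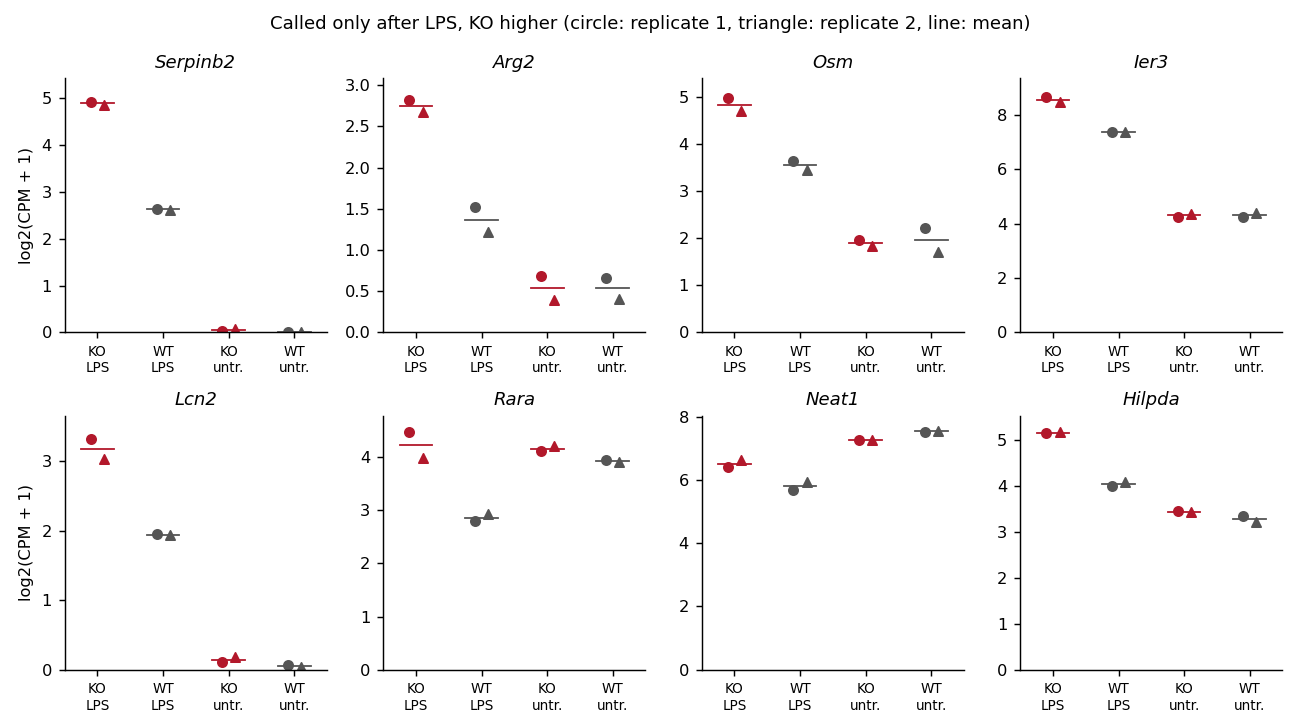
Level of the 8 genes with the largest difference among those called higher in KO cells with LPS only, as log2(CPM + 1) in each library, with a scale of its own for each gene. KO cells with LPS lie above WT cells with LPS in each panel, and for Rara and Neat1 the WT level with LPS lies below the untreated one.

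Genes that differed before LPS followed several courses. In Cd40, the costimulatory receptor of the TNF receptor family, the gap closed: it was at 107 and 112 CPM in KO cells with LPS, against 110 and 137 CPM in WT cells with LPS, and without LPS at 9.83 and 8.78 CPM in KO and at 3.27 and 3.4 CPM in WT cells. The untreated groups did not overlap and those with LPS did, and the difference of the responses was -1.41 (SE 0.12, adjusted p = 1.3e-05). Bcar3, an adaptor of integrin signalling, closed from the other side, at 45.8 and 48.4 CPM in KO cells with LPS, against 45.8 and 43.1 CPM in WT cells with LPS. Without LPS it was at 14.2 and 16.6 CPM in KO and at 34.6 and 39.7 CPM in WT cells, and the difference was 1.30 (SE 0.11, adjusted p = 1.3e-05). With LPS the Bcar3 libraries of KO cells lay level with or just above those of WT cells, a difference of 0.08 that was not called (adjusted p = 0.463).

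Ccr2, the receptor of Ccl2, kept its direction while the gap narrowed. It was at 13.3 and 7.94 CPM in KO cells with LPS, against 4.62 and 2.88 CPM in WT cells with LPS, and without LPS at 79.3 and 42.9 CPM in KO and at 6.49 and 4.32 CPM in WT cells. KO libraries lay above WT libraries in both conditions, 2.84 times as high with LPS and 11.3 times without it. Its responses differed by -1.96 (SE 0.22, adjusted p = 0.000132). The transcription factor Maf narrowed as well, at 2.59 and 2.41 CPM in KO cells with LPS, against 0.416 and 0.561 CPM in WT cells with LPS, while without LPS it was at 6.32 and 4.42 CPM in KO and at 0.279 and 0.075 CPM in WT cells. It fell by 0.85 in KO and rose by 0.34 in WT cells, which held 14 reads untreated, and the difference was -1.19 (SE 0.18, adjusted p = 0.00147).

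Tbx3 and Hpgd had few reads or none in WT cells. The transcription factor Tbx3 was at 21.2 and 18.6 CPM in KO cells with LPS and at 60.4 and 50.1 CPM in untreated KO cells, against 0 reads in all WT libraries, so no ratio can be formed in WT cells. Its difference of -1.43 (adjusted p = 5.63e-05) is the fall in KO cells alone, and it was called in neither edgeR nor DESeq2. Hpgd, which inactivates prostaglandins, was at 11.5 and 5.92 CPM in KO cells with LPS, against 0.197 and 0.0731 CPM in WT cells with LPS, and without LPS at 201 and 119 CPM in KO and at 2.16 and 0.925 CPM in WT cells. The difference of the responses of Hpgd was -2.94, and -0.77 in edgeR, where it was not called (adjusted p = 0.614).

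Mmp9 and Csf3 were higher in KO cells before LPS and rose in both genotypes. The matrix protease Mmp9 was at 107 and 112 CPM in KO cells with LPS, against 6 and 7.63 CPM in WT cells with LPS, 16 times as high. Without LPS Mmp9 held 304 reads in KO and 7 in WT cells, and the difference of the responses was 1.70 (adjusted p = 0.000143) but -1.41 in edgeR, where it was not called (adjusted p = 0.341). Csf3, the granulocyte growth factor G-CSF, was at 462 and 413 CPM in KO cells with LPS, against 116 and 131 CPM in WT cells with LPS, 3.54 times as high with LPS and 3.76 times without it. Its difference of 1.32 (adjusted p = 2.07e-05) was -0.09 in edgeR and not called (adjusted p = 0.96): the ratio of KO to WT cells was nearly the same with and without LPS.

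**Figure D4:**
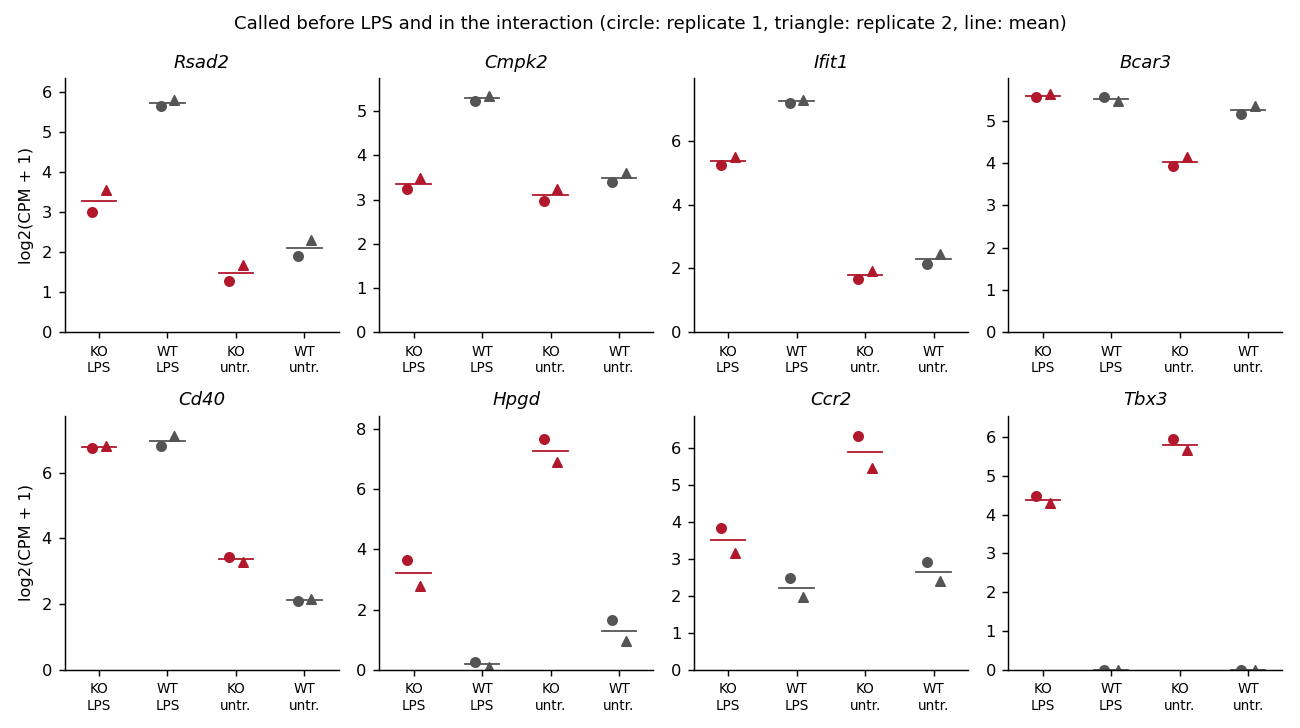
Level of 8 genes called before LPS and in the difference of the responses, as log2(CPM + 1) in each library, with a scale of its own for each gene. KO and WT cells with LPS overlap for Cd40 and lie next to each other for Bcar3, and they lie apart for the other genes.

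Among the remaining lists, 5 of 18 PARP family genes had a smaller and 0 a larger response value in KO cells (median -0.14), against 2.12% and 1.67% of all genes tested, namely Parp9, its partner Dtx3l, Parp10, Parp12 and Parp14. Without the replicate block 0 PARP family genes were called, and 3 were called without untreated KO replicate 1, without untreated WT replicate 2 or with no filter on low values. Dtx3l, a ubiquitin ligase, was at 35.4 and 43.7 CPM in KO cells with LPS, against 78.6 and 92.3 CPM in WT cells with LPS (difference -0.90, SE 0.09, adjusted p = 7.23e-05). Parp14 had the smallest, -0.35 (adjusted p = 0.0283; edgeR adjusted p = 0.0974), and its call was lost without 1 of 5 single libraries (-0.38 to -0.28). Of 18 MHC class I loading and immunoproteasome genes 3 had a smaller value, the peptide transporter Tap1 with the largest size, -0.76. Of 17 cytokine feedback genes of the Jak-STAT pathway 2 had a larger value, Cish and Pim3, and the inhibitors Socs1 and Socs3 were not called, at -0.50 (adjusted p = 0.149) and 0.26 (adjusted p = 0.323). Cish had 3 KO and 0 WT reads untreated, and its 0.67 turned to -2.85 in edgeR and -2.32 in DESeq2, called in neither. Pim3 lost its call without any 1 of the 8 libraries (0.27 to 0.34). Without the replicate block 0 genes of these last 2 lists were called. None of 23 sterol synthesis genes was called by limma, edgeR or DESeq2, and the largest was Sc5d at -0.28 (adjusted p = 0.0916).

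**Figure D5:**
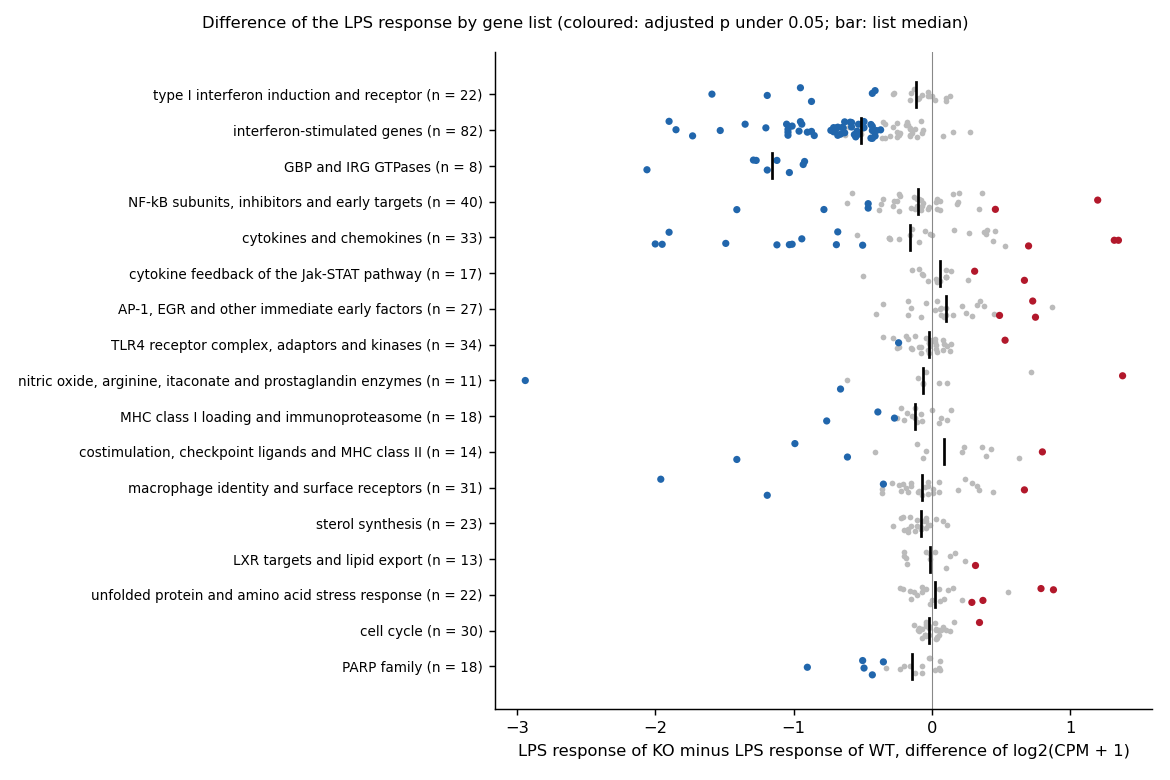
Difference of the LPS response, KO minus WT, as log2(CPM + 1), for the tested members of 17 gene lists (1 point a gene; coloured points have an adjusted p under 0.05, the black bar is the list median). Interferon-stimulated genes and GTPases lie mostly left of 0, and the sterol list stays grey.

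The Jak inhibitor libraries allow a view of the same genes in WT cells with LPS and blocked Jak kinases. Both sets are compared with the same WT libraries with LPS, so only levels are given. Ifit2, Rsad2 and Cmpk2 were at 2.08 and 3, 4.81 and 5.27, and 4.16 and 4.55 CPM in WT cells with LPS and inhibitor, in each case below the KO cells with LPS. Irf1 was at 29.9 and 23 CPM and Ifit1 at 39.5 and 39 CPM there, close to or within the KO values with LPS. Prdm1 was at 31.5 and 26.6 CPM, Ccl7 at 4.81 and 4.32 CPM, Cx3cl1 at 8.04 and 5.56 CPM and Ifnb1 at 24.2 and 28.4 CPM, near the WT level with LPS alone and above the KO cells. Between the KO and the WT level with LPS lay Csf1 at 26.3 and 20.2 CPM, Gbp5 at 3.45 and 2.97 CPM and Cxcl11 at 5.77 and 7 CPM with inhibitor. Of the genes higher in KO cells, Serpinb2, Osm and Ier3 were at 5.58 and 4.88, 11.2 and 10.1, and 163 and 163 CPM with inhibitor, near the WT level with LPS alone.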

How the data were processed

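The authors deposited CPM per gene symbol and library, made from read counts. The submitters' processing notes name TopHat2 2.1.0, HTSeq, edgeR and the builds mm10 and GRCm38. Annotation, strand setting and other versions are not stated there. The deposited CPM were scaled over all counted alignments, including 5 summary lines that name no gene; genes took 58.95 to 64.06%. These lines were dropped and each library was rescaled to its gene sum. Values above 0 came out as whole reads within 0.02 in 100% of cases, so counts were recovered for edgeR 4.0.16 and DESeq2 1.42.0. A further 4 columns matched no sample here and were not used. One gene is not reported here.

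Genes reaching 1 CPM in 2 or more libraries, 10899 of 24421 symbols, were fitted with limma 3.58.1 (R 4.3.3; trend, empirical Bayes) on log2(CPM + 1) over all 12 libraries, with 6 group means and the replicate number as a block. The block was set in advance for this comparison. Replicates 1 and 2 differed alike in every pair of groups (r = 0.468 to 0.737 across genes, 15 pairs). The edgeR quasi-likelihood fit on recovered reads called 132 genes with a larger and 209 with a smaller response value. Counts were simulated for this difference over 10899 genes, with 100 genes changed by 1, 100 by 2 and 10699 unchanged. Changed genes averaged 5 CPM or more. In these counts limma recovered 100% of changes of 1 and 100% of changes of 2 on the log2 scale. It called 0.551% of unchanged genes, while edgeR called 0.103% and recovered 100% and 99% of the changes. With far more unchanged than changed genes, false calls were a larger share of the limma calls than the adjusted p threshold allows. Precision is limited by 2 libraries a group, and intervals cover the spread between these samples.

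Genes were named if called, at 5 CPM or more in the highest group and of one sign in both replicate numbers, taking the 8 largest of each class, with up to 4 members of each list and genes followed in any case; some are not described. Sdc4, Samd9l, Pml, Igtp, Irgm2 and members spelled out beside a count were named after their values were seen. The genes of lists and classes were chosen with earlier results of these data known. Positions come from GENCODE M21. Alternatives were other pseudocounts, filters, scalings, tools, no block, the 8 libraries alone, and each library left out.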

Additional observations from a re-analysis of the deposited data

Results flagged for a closer look

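The counts of genes whose response differed between KO and WT cells by the test of the difference itself were 182 with a larger and 231 with a smaller response value in KO cells. Within them 22 genes were called in opposite directions in the genotypes. In 16 of these LPS lowered the gene in KO and raised it in WT cells. The differences of the responses were -1.73 for Ifit2, -1.19 for Maf, -0.95 for Stat2, -0.86 for the phosphatase Ppm1k, -0.67 for the kinase Syk and -0.67 for Asap1. They were -0.65 for Phf11b, -0.59 for Setdb2, -0.56 for Phf11a, -0.56 for Sp100, -0.55 for Herc6 and -0.54 for Ifi203. They were -0.50 for Parp9, -0.33 for Ado, -0.27 for Sav1 and -0.26 for Tor1aip1. In the other 6 LPS raised the gene in KO and lowered it in WT cells, with differences of 0.85 for Dhrs9, 0.75 for Iffo2, 0.53 for Dpp7, 0.52 for Myo1d, 0.43 for Ankrd11 and 0.26 for Zfp335.

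The opposite directions depend on the scaling, which sets where the median response of all genes lies. With the gene sum that median was -0.29 in KO and -0.30 in WT cells. After rescaling by the median of ratios, an alternative chosen after seeing the data, it was -0.03 and -0.04. Of the 22 genes 6 were then still called in opposite directions. The call of the difference itself was kept without each library in turn for 11 of the 22 and lost without at least 1 of them for the other 11. The 6 were Ifit2, Maf, Stat2, Syk, Asap1 and Iffo2. Syk, the kinase below immune receptors, was at 41.4 and 36.7 CPM in KO cells with LPS, against 116 and 112 CPM in WT cells with LPS, and was already lower in KO cells before LPS (58.8 and 52.1 against 108 and 93.3 CPM). Iffo2 was at 36.3 and 41.1 CPM in KO cells with LPS, against 21.2 and 21.5 CPM in WT cells with LPS, and its untreated groups overlapped in range.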

How the results depend on the processing

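Without the replicate block 14 genes had a larger and 31 a smaller response value in KO cells, 10 were higher and 22 lower with LPS only, and 13 were called before LPS as well. With no filter on low values the larger responses were 97, those higher with LPS only 55 and those called before LPS 123. DESeq2 gave 56 higher with LPS only. A size of at least 1 left 18 larger and 38 smaller. Leaving out each library in turn gave 99 to 171 larger, 133 to 180 smaller, 44 to 87 higher and 59 to 84 lower with LPS only, and 111 to 177 called before LPS; the lowest counts came without KO with LPS replicate 1 (99 larger, 44 higher with LPS only), without untreated KO replicate 1 (133 smaller), without WT with LPS replicate 2 (59 lower with LPS only) and without untreated WT replicate 1 (111). The CPM as deposited gave 239 larger and 211 smaller, so which direction had more calls depended on the scaling. Fits without a library have fewer samples; for the other changes the cause was not tested. With the other pseudocount, filter and scalings, the 8 libraries alone and edgeR, the counts were within 1.5 times, except as given. Of 93 named calls 14 were kept in every alternative run, 57 without each library in turn, 65 in edgeR and 62 in DESeq2; the 14 were Arg2, Asap1, Bcar3, Cd40, Cmpk2, Csf1, Gbp2b, Hilpda, Ier3, Ifit1, Ifit2, Irf1, Osm and Rsad2. Genes with few or no untreated reads turned direction in the count tools, without a call: in edgeR Cx3cl1 0.19, Serpinb2 -1.14, Mmp9 -1.41, Csf3 -0.09, Ccl7 0.41 and Cish -2.85, and in DESeq2 Serpinb2 -0.60, Mmp9 -1.44, Csf3 -0.11 and Cish -2.32. On the scale of CPM itself, chosen after seeing the data, the direction was the same for 103 of the 105 and all 85 genes called with LPS only. The definition of these classes nearly fixes that direction, so the count does not test whether a ratio differed.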

Other observations

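Some genes of amino acid supply and others that the factor ATF4 is known to control had a larger response value in KO cells. They were grouped after their values had been seen and so are given without a test of the group. The count below therefore does not show that such genes share a course, and it was not repeated under the alternative settings. Most of the 18 tested were enzymes or transporters of amino acid and one-carbon pathways, but Ddit4, Gtpbp2, Cebpg and Nupr1 were not. Of the 18, 8 had a larger and 1 a smaller response value in KO cells (median 0.35), against 1.67% and 2.12% of all genes tested. The 8 included Ddit4 and Gtpbp2. Cth, which makes cysteine, was at 22.5 and 16.8 CPM in KO cells with LPS, against 5.83 and 6.85 CPM in WT cells with LPS, and at 6.39 and 5.41 CPM in KO and 3.47 and 2.85 CPM in WT cells without LPS. Mthfd2, a mitochondrial one-carbon enzyme, was at 240 and 221 CPM in KO cells with LPS, against 128 and 130 CPM in WT cells with LPS. The exception was the cystine carrier Slc7a11, at 120 and 118 CPM in KO cells with LPS, against 292 and 263 CPM in WT cells with LPS, a difference of the responses of -0.71. The cytosolic aminoacyl-tRNA synthetases were also listed after values had been seen. Of these 20, 4 (Aars, Cars, Nars and Sars) had a larger and 0 a smaller value, with a median of 0.11. Over all genes tested the shares were 1.67% and 2.12%. In the list of the unfolded protein and amino acid stress response 4 of 22 had a larger value (median 0.02; 0 called without the replicate block): Chac1, Sesn2, Asns and Shmt2, of which Chac1, Sesn2 and Shmt2 each lost the call without 1 of 5 single libraries (0.71 to 0.88, 0.55 to 0.80 and 0.22 to 0.31). Asparagine synthetase, Asns, was at 218 and 202 CPM in KO cells with LPS, against 117 and 116 CPM in WT cells with LPS. Its untreated difference was 0.47 and the difference of its responses 0.37 (SE 0.07, adjusted p = 0.00585, limma). Most of this list of 22 was already higher in KO cells before LPS. In KO cells 18 were called higher untreated (median 0.49) and 21 with LPS (median 0.48), against 10.9% and 14.9% of all genes tested.

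Markers of osteoclasts, which RAW 264.7 cells can become, summed to 193 to 224 CPM in KO cells with LPS, against 89.8 to 124 CPM in WT cells with LPS, and 1 of 6 tested was called, Mmp9. Mmp9 alone was at 107 and 112 CPM in KO cells with LPS, against 6 and 7.63 CPM in WT cells with LPS. Without LPS the markers summed to 87 to 104 CPM in KO and to 107 to 121 CPM in WT cells. Of 5 tested dendritic cell markers 1 was called, Itgax (0.67, adjusted p = 0.048; call lost without 1 of 7 single libraries, 0.55 to 0.75). Of 31 macrophage genes 1 had a larger and 3 a smaller value, and the costimulation and MHC class II list had 1 and 3 of 14. Of 30 cell cycle genes 1 had a larger value and 0 a smaller one, and of 13 LXR targets 1 and 0. Of all genes tested 1.67% had a larger and 2.12% a smaller value.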
